A study of Homo sapiens with 12 samples.

Results

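The germline and cancer-testis genes are 45 genes whose transcripts are normally found in testis, ovary or the early embryo and which tumours often transcribe outside these tissues. They were taken by name from a list of germ cell regulators, meiosis genes, piRNA pathway genes and cancer-testis antigens, and all 45 were found among the 58662 genes matched in the deposited count tables. CTCFL and NLRP4 were chosen by their measured RNA levels, which were higher in all 5 knockdowns than in the control, and the other 43 were added as genes of the same kinds. The difference of CTCFL and NLRP4 from the control is therefore a description without a test, and all counts of calls are over those of the other 43 that were tested.

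Germ cells pack meiotic chromosomes with proteins of the synaptonemal complex and with germline forms of cohesin, and they silence transposons with piRNAs, small RNAs bound by PIWI proteins in cytoplasmic granules. In somatic cells most of the genes for this machinery are kept silent by DNA methylation and by repressive chromatin complexes. The nucleosome remodelling and deacetylase complex (NuRD) is such a complex. CHD4 is its remodelling ATPase, HDAC2 a histone deacetylase, GATAD2A a structural subunit and KDM1A (LSD1) a histone demethylase that can associate with it. CARM1 is an arginine methyltransferase that modifies histones and other proteins.

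RNA was sequenced from HEK293T cells, a human embryonic kidney line carrying a viral large T antigen, labelled wild type and grown in DMEM with serum. Each culture had received either a control siRNA (siCTL) or an siRNA against CARM1 (siCARM1), CHD4 (siCHD4), HDAC2 (siHDAC2), GATAD2A (siGATAD2A) or KDM1A (siKDM1A), giving 6 groups of 2 libraries and 12 libraries in all. The cells are 1 transformed line, the siRNA effect is partial and transient, and the labels give no time after transfection. The question behind the comparisons was whether CARM1 and NuRD subunits control the same genes, and all 5 knockdowns were compared with the same siCTL libraries. Nothing in the labels says whether the libraries of a group came from separate cultures, so p-values measure the spread between these libraries, which may be technical. Libraries were sequenced at either of 2 companies and the company is not given per library, so company and group cannot be told apart.

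The libraries held between 19308315 and 28648657 counts in genes on the strand of the transcript. The targeted RNA was at 16.6% of its siCTL level for KDM1A, 19.2% for CARM1, 19.7% for HDAC2 and 29.8% for GATAD2A, but at 68.9% for CHD4, whose exons overlap those of a second annotated gene. Summed over 8 HEK293 markers fixed as a list, levels lay between 2545 and 3773 CPM (counts per 1000000 counts in the genes tested, with edgeR's TMM scaling) in the 6 groups, and all 8 had counts in every group. Among 9 germ cell and pluripotency markers the summed level lay between 46.3 CPM in siCHD4 and 62.1 CPM in siCARM1. DPPA3 and NANOG, which define primordial germ cells and pluripotent cells, had 0 counts in all 12 libraries, and KIT, SOX17 and TFAP2C made up nearly all of the sum. Of the 9 markers, 5 had counts in siCTL, 4 in siCARM1, 7 in siCHD4 and 6 in each of siHDAC2, siGATAD2A and siKDM1A. PRDM14 and UTF1 had no count in siCTL, while both had counts in siCHD4 and siKDM1A. A mean of at least 10 counts was reached by 4 markers in siCHD4 and by 3 in every other group. In bulk RNA, fewer cells that transcribe a gene and less of its RNA per cell cannot be told apart.

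Germline genes were sparsely transcribed in these cells, and 7 of the 45 exceeded 0.5 FPKM (counts per 1000000 counts in all genes, without TMM scaling, and per kilobase of exon) in siCTL, against 12 in siCHD4. DAZL, a germ cell RNA-binding protein, and SPO11, which makes the DNA breaks of meiosis, had no count in any library. The synaptonemal complex genes SYCP1 and SYCE1, the piRNA factor ASZ1 and the RNA-binding protein BOLL had at most 1 count in any library. A further 15 members reached a group mean of 1 to 10 counts. They were the maternal-effect gene NLRP7, the piRNA and germ granule genes MAEL, DDX4, TDRD1, TDRD9 and PIWIL1, the meiosis genes SYCP3, TEX11, SMC1B, MEIOB and HORMAD1, the testis bromodomain gene BRDT, the antigens MAGEA4 and GAGE1, and DPPA4 of the early embryo. Their counts ran from 0 to 7 in single libraries, so that a change of moderate size was not detectable at this depth. Within MEIOB 77.7% of the exonic length lay on the same strand as another gene, and reads shared by both were not counted.

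Of the 24 members with a mean of at least 10 counts in some group, 12 reached 50 counts. In siCTL 16 members had a mean of at least 10 counts, against 21 in siCHD4, 18 in siCARM1, 19 in siHDAC2, 19 in siGATAD2A and 16 in siKDM1A. These are raw counts, and siCTL was the shallowest group, with 42378154 counts in genes against 48502077 to 50177438 in the knockdowns. The share of all genes reaching such a minimum was not counted. A mean of at least 50 counts was reached by 5 members in siCTL and by 11 in siCHD4, while each of the other knockdowns had 5 or 6. By role, 8 of 14 piRNA and germ granule genes were detected in this sense, 5 of 7 cancer-testis antigens, 3 of 4 meiotic cohesin subunits, 2 of 6 synaptonemal complex genes (TEX11 counted among them), 2 of 3 NLRP genes and 1 of 4 recombination genes.

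For the tests, a coding gene had to exceed 0.5 FPKM in the mean of at least 1 group, which 12830 genes did, 13 of them members. The differences were tested over all 12830 genes with edgeR's quasi-likelihood test, and a gene was called where its Benjamini-Hochberg adjusted p was at most 0.05 and its change at least 1.2-fold. Besides CTCFL and NLRP4 the tested members were PRAME, MAGEB2, MAGEC1, SSX1, PAGE1, TEX19, TEX15, TEX14, SYCP2, SYCE2 and DPPA2. MAGEC1, SSX1, PAGE1 and NLRP4 passed the minimum only through siCHD4 and so had to differ there. Their calls in siCHD4 therefore add no support, and they are listed for their values.

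Of the 43 other members, 11 were tested. In siCHD4, 7 of these 11 were called higher (PRAME, TEX19, TEX14, MAGEB2, MAGEC1, SSX1 and PAGE1) and 2 lower (SYCP2 and SYCE2), where 24.0% of all tested genes were higher and 24.9% lower. MAGEC1, SSX1 and PAGE1 are among the 7 and, having passed the minimum only through siCHD4, add no support. In siCARM1, 3 were higher (PRAME, TEX19 and TEX15) and 0 lower, against 14.9% and 14.5% of all tested genes. In siHDAC2, 4 were higher (PRAME, TEX19, TEX15 and SYCP2) and 1 lower (TEX14), against 10.6% and 9.00%. In siGATAD2A, 4 were higher (PRAME, TEX19, MAGEB2 and SSX1) and 1 lower (TEX15), against 15.7% and 18.2%. In siKDM1A, 2 were higher (PRAME and TEX19) and 0 lower, against 14.2% and 11.5%.

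Without MAGEC1, SSX1 and PAGE1, the median log2 change over the 8 remaining tested members was 0.23 in siCHD4, 0.33 in siCARM1, 0.33 in siHDAC2, 0.01 in siGATAD2A and 0.26 in siKDM1A, where the medians over all tested genes lay between -0.0024 and 0.0051. With those 3 included the siCHD4 median was 0.98. PRAME and TEX19 were called higher in all 5 knockdowns, and none of the other tested members besides CTCFL and NLRP4 was. The share of all tested genes called higher in all 5 was not counted. Calls can recur because the 5 comparisons share the same siCTL libraries.

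**Figure D1:**
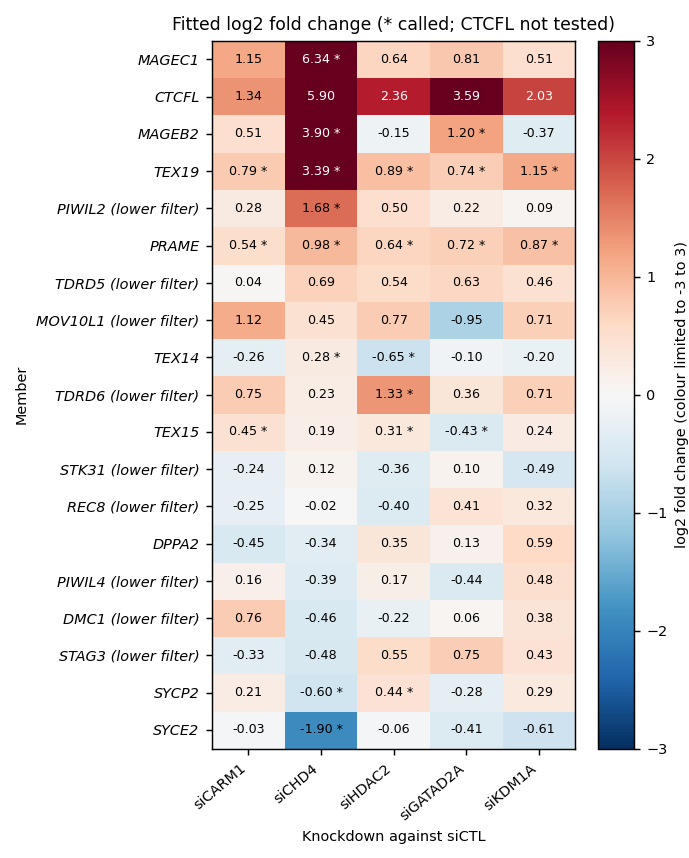
Log2 change against siCTL of 19 members in the 5 knockdowns, as colour (limited to 3 in either direction) with an asterisk where called. PRAME and TEX19 carry an asterisk in all 5 columns. CTCFL is shown without a test, and the rows marked lower filter come from the fit with a lower filter on counts. MAGEC1 passed the FPKM minimum only through siCHD4, so its asterisk in that column adds no support.

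CTCFL (BORIS), the germline paralogue of the insulator protein CTCF, lies on the minus strand of chromosome 20 (ENSG00000124092, GRCh37, 20:56071022-56100708). CTCFL had 8 and 12 counts in the siCTL libraries, 28 and 32 in siCARM1, 681 and 705 in siCHD4, 73 and 45 in siHDAC2, 134 and 153 in siGATAD2A and 50 and 44 in siKDM1A. Every knockdown library lay above both siCTL libraries, and both siCHD4 libraries lay above every other library. The level was 0.495 ± 0.0809 CPM in siCTL (SD, n = 2 in every group), 1.30 ± 0.325 in siCARM1, 2.06 ± 0.311 in siKDM1A, 2.72 ± 1.5 in siHDAC2, 6.11 ± 0.934 in siGATAD2A and 30.1 ± 0.0352 in siCHD4. In that order siKDM1A and siHDAC2 overlapped in their libraries, and the other neighbours did not.

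On the log2 scale the difference of CTCFL from siCTL was 1.34 (SE 0.44) in siCARM1, 2.03 (SE 0.40) in siKDM1A, 2.36 (SE 0.38) in siHDAC2, 3.59 (SE 0.32) in siGATAD2A and 5.90 (SE 0.25) in siCHD4. Without siHDAC2 replicate 1 the siHDAC2 difference was 1.73. siCHD4 stood 4.55 (SE 0.20) above siCARM1, 3.87 (SE 0.19) above siKDM1A, 3.54 (SE 0.18) above siHDAC2 and 2.30 (SE 0.15) above siGATAD2A on the same scale, and 4.15 above siHDAC2 without siHDAC2 replicate 1. Counts on the opposite strand of CTCFL stayed between 1 and 11 in all libraries.

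NLRP4 encodes an NLR family protein transcribed in oocytes and testis (ENSG00000160505, plus strand, GRCh37, 19:56347906-56393221). NLRP4 had 2 and 0 counts in the siCTL libraries, 8 and 11 in siCARM1, 104 and 101 in siCHD4, 5 and 12 in siHDAC2, 18 and 7 in siGATAD2A and 5 and 10 in siKDM1A. The siCTL counts rest on 1 library, every knockdown library lay above both siCTL libraries, and siCHD4 again lay above all others. Its ratio to siCTL was 86.6 in siCHD4 (exact 95% counting interval 23.7 to 720), 10.6 in siGATAD2A (2.64 to 92.3), 8.05 in siCARM1 (1.94 to 71.3), 7.31 in siHDAC2 (1.74 to 65.3) and 6.55 in siKDM1A (1.52 to 59.1). These intervals cover counting error only, and among the 4 lower knockdowns they overlap almost wholly.

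Without siCTL replicate 2, which had no NLRP4 count, the log2 difference of NLRP4 was 5.27 in siCHD4, 2.22 in siGATAD2A, 1.83 in siCARM1, 1.69 in siHDAC2 and 1.53 in siKDM1A. Without siCTL replicate 1 no count was left in the control. About 6.62% of the exonic length of NLRP4 lies opposite an exon of NLRP11, and the counts are by strand.

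**Figure D2:**
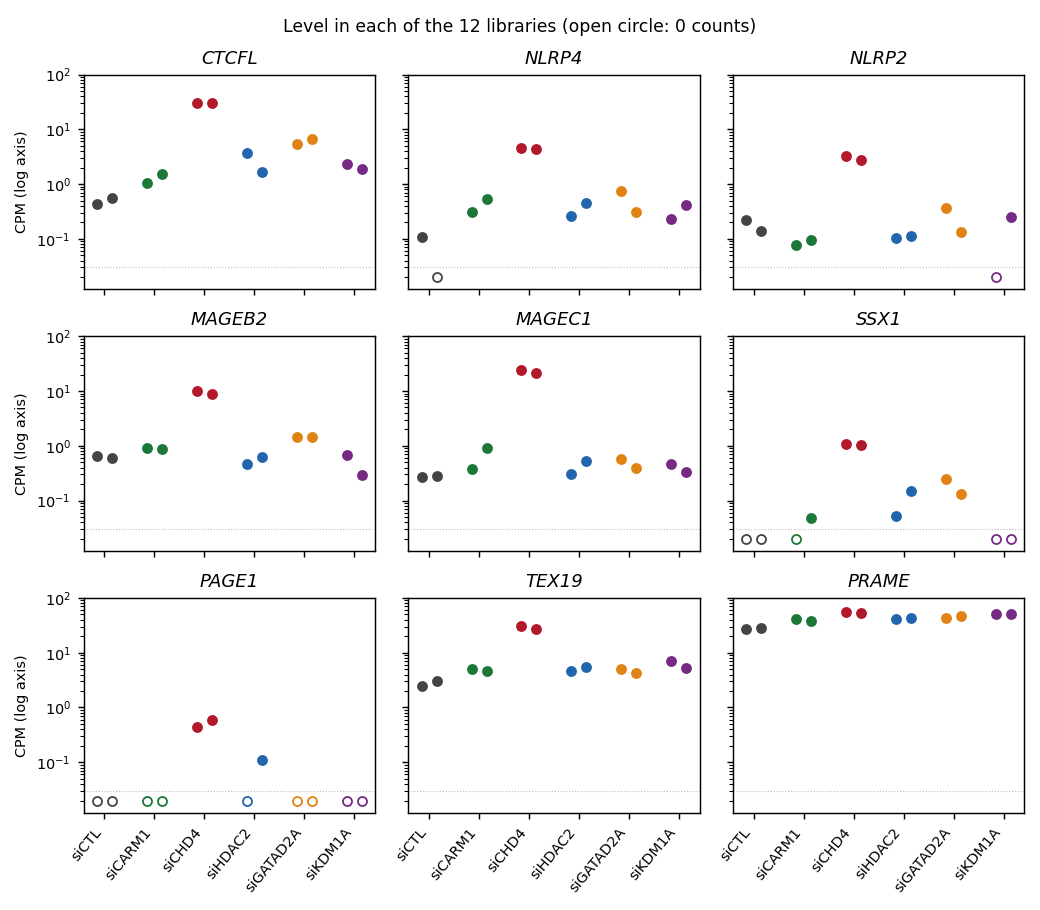
Level in CPM (log axis) of 9 members in each of the 12 libraries, by group, with open circles for libraries with 0 counts. The siCHD4 points lie above all others in every panel, while PRAME and TEX19 are above siCTL in every knockdown.

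The promoter windows of the genes that stood out are shown here because the study concerns a chromatin complex that acts at promoters. They are the 250 bases before an annotated RefSeq start (GRCh38.p14), 5′ to 3′ on the strand of the gene, with CG dinucleotides, the site of DNA methylation, in capitals. CTCFL, NLRP4 and PRAME were printed by the rule for genes called or chosen in at least 3 knockdowns. The windows of MAGEC1, MAGEB2 and SSX1, raised in siCHD4, and of the silent SPO11 were chosen after their values were seen. CTCFL and PRAME have 3 annotated windows each, of which the one with the fewest CG dinucleotides is shown, and TEX19 is not in the table.
CTCFL, chr20:57525653-57525902, minus strand: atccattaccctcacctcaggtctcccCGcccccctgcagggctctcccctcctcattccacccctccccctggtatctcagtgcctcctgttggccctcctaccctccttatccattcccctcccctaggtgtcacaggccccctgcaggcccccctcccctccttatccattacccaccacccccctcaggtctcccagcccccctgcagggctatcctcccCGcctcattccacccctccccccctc
NLRP4, chr19:55836290-55836539, plus strand: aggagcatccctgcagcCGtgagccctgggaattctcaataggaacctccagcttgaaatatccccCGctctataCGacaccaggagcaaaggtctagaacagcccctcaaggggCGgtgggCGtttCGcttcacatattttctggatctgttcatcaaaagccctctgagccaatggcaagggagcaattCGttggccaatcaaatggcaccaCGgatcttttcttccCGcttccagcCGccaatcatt
PRAME, chr22:22554183-22554432, minus strand: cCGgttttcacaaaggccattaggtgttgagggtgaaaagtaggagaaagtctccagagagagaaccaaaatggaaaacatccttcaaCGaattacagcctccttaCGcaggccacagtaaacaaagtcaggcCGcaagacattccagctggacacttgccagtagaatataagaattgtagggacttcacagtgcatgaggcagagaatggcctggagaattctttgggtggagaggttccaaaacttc
MAGEC1, chrX:141903644-141903893, plus strand: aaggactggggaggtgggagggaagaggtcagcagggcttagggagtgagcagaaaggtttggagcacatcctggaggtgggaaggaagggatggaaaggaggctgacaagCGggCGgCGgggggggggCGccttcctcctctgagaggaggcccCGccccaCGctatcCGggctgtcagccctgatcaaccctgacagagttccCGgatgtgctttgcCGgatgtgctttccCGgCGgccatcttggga
MAGEB2, chrX:30215313-30215562, plus strand: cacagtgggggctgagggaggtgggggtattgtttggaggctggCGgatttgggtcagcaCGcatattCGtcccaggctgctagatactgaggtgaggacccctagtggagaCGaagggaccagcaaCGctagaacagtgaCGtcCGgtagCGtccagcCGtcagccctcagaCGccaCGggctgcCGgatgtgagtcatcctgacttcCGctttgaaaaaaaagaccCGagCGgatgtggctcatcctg
SSX1, chrX:48255142-48255391, plus strand: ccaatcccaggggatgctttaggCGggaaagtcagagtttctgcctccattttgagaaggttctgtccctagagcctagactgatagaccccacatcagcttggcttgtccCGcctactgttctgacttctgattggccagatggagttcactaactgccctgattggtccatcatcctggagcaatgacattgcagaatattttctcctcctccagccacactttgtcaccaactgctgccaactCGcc
SPO11, chr20:57329553-57329802, plus strand: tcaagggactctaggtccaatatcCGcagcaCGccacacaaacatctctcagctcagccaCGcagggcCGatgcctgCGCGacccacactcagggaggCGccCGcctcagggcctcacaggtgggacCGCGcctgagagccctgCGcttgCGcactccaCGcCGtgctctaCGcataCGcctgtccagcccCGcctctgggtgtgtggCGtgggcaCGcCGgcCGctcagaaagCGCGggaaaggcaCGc

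The printed windows differ in their CG content. CTCFL has 2 CG dinucleotides, SSX1 has 3, PRAME 4, NLRP4 10, MAGEC1 11 and MAGEB2 15, while that of SPO11 has 24. The other windows of CTCFL hold 15 and 7, and those of PRAME 9 and 8. Over all 35116 RefSeq windows, from 27305 genes, the median was 11. The 56 windows found for 38 of the members had a median of 14.5 and ranged from 0 to 51. Windows were not found for TEX19, TEX14, TEX15, PIWIL2, PIWIL4, HORMAD1 and MEIOB.

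The members that stood at least 5-fold higher in siCHD4 with at least 20 counts there (CTCFL, NLRP4, NLRP2, MAGEB2, MAGEC1, SSX1, PAGE1 and TEX19) had 10 windows from 7 genes with a median of 10 CG dinucleotides, from 2 to 15. The members under 1 count in every group had 9 windows from 6 genes with a median of 23, from 8 to 29. Members were sorted into these sets by their RNA, some genes give several windows, and the difference was not tested.

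The E-box CACGTG, a motif bound by factors that include the germline repressor complex of MAX and MGA, was in 19.6% of the member windows and in 6.34% of all windows. The letters GCGGGA, searched on both strands (TCCCGC on the other) as the core of an E2F site, were in 37.5% of the member windows against 23.5% of all. Of the 9 windows of near-silent members 7 held GCGGGA, against 2 of the 10 windows of the members at least 5-fold higher in siCHD4. Both motifs contain a CG dinucleotide, and the windows of these 2 sets differ in CG number, with medians of 23 and 10. The part of CG content in the motif shares was not tested. A match in letters does not show binding, and the search covered these windows only.

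PRAME, a cancer-testis antigen that can repress retinoic acid receptor signalling, was the member with the highest level per length in siCTL, at 6.80 FPKM. PRAME had 487 and 612 counts in the siCTL libraries, 1090 and 794 in siCARM1, 1231 and 1265 in siCHD4, 809 and 1173 in siHDAC2, 1052 and 1078 in siGATAD2A and 1099 and 1195 in siKDM1A. Raw counts depend on library size, and in CPM the siCTL libraries averaged 27.4 ± 1.07 and every knockdown group was above them. PRAME rose in all 5 knockdowns, by 0.54 (SE 0.07, adjusted p = 4.32e-07) in siCARM1, 0.64 (SE 0.07, adjusted p = 3.66e-08) in siHDAC2 and 0.72 (SE 0.07, adjusted p = 7.78e-10) in siGATAD2A on the log2 scale. The change was 0.87 (SE 0.07, adjusted p = 2.64e-11) in siKDM1A and 0.98 (SE 0.07, adjusted p = 2.51e-13) in siCHD4. PRAME moved less than 2-fold in every knockdown, and siCHD4 and siKDM1A were the highest groups at 54.1 ± 0.346 and 50.2 ± 0.0815 CPM.

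TEX19, a mammalian germ cell gene that restrains retrotransposons, was at 1.34 FPKM in siCTL and 13.8 FPKM in siCHD4 (ENSG00000182459, plus strand, GRCh37, 17:80317123-80321651). TEX19 had 45 and 66 counts in the siCTL libraries, 130 and 96 in siCARM1, 700 and 639 in siCHD4, 91 and 148 in siHDAC2, 124 and 95 in siGATAD2A and 157 and 123 in siKDM1A. Both siCHD4 libraries lay above all others, and all knockdown libraries lay above both siCTL libraries. The log2 change was 3.39 (SE 0.16, adjusted p = 4.01e-18) in siCHD4, 1.15 (SE 0.19, adjusted p = 1.34e-05) in siKDM1A and 0.89 (SE 0.20, adjusted p = 0.00064) in siHDAC2. It was 0.79 (SE 0.20, adjusted p = 0.00157) in siCARM1 and 0.74 (SE 0.20, adjusted p = 0.00246) in siGATAD2A. Another annotated gene covers 43.8% of its exonic length on the opposite strand, where counts stayed between 5 and 17. With counts taken without regard to strand the siCARM1 change was 0.64 with an adjusted p of 0.0895.

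The X-linked cancer-testis antigens belong to multigene families expressed in spermatogonia, and reads that map to several family members were not counted, so their levels are uncertain. MAGEB2 and MAGEC1 encode MAGE proteins, which bind and modulate ubiquitin ligases. MAGEB2 had 12 and 13 counts in the siCTL libraries, 24 and 18 in siCARM1, 228 and 206 in siCHD4, 9 and 17 in siHDAC2, 35 and 33 in siGATAD2A and 15 and 7 in siKDM1A. Both siCHD4 libraries stood above all others, the siGATAD2A libraries were next, siCARM1 lay above siCTL, and siHDAC2 and siKDM1A overlapped with siCTL. The log2 change of MAGEB2 was 3.90 (SE 0.26, adjusted p = 2.53e-14) in siCHD4 and 1.2 (SE 0.36, adjusted p = 0.0057) in siGATAD2A. MAGEB2 passed the FPKM minimum in siCARM1, siCHD4 and siGATAD2A but not in siCTL, so these calls are not independent of that minimum. The siGATAD2A call was lost without siCTL replicate 2, at 1.13 with an adjusted p of 0.0515. In siCARM1, siHDAC2 and siKDM1A the values were 0.51, -0.15 and -0.37, not called, and the siKDM1A value was -1.08 without siKDM1A replicate 1.

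MAGEC1 had 5 and 6 counts in the siCTL libraries, 10 and 19 in siCARM1, 540 and 510 in siCHD4, 6 and 14 in siHDAC2, 14 and 9 in siGATAD2A and 10 and 8 in siKDM1A. The level went from 0.275 ± 0.00180 CPM in siCTL to 22.8 ± 1.5 CPM in siCHD4, and no other group exceeded 0.644 CPM. The siCHD4 difference of MAGEC1 was 6.34 (SE 0.26) on the log2 scale, the largest fitted change of any member whose siCTL sum exceeded 3 counts. MAGEC1 passed the FPKM minimum only through siCHD4 and so had to differ there, and this value is a description. The siCARM1 value was 1.15 (SE 0.52, adjusted p = 0.0718), not called, 1.70 with an adjusted p of 0.0112 without siCARM1 replicate 1, and 0.46 without siCARM1 replicate 2.

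SSX1 encodes a testis transcriptional repressor best known as a fusion partner in synovial sarcoma. SSX1 had 0 and 0 counts in the siCTL libraries, 0 and 1 in siCARM1, 24 and 24 in siCHD4, 1 and 4 in siHDAC2, 6 and 3 in siGATAD2A and 0 and 0 in siKDM1A. With 0 counts in siCTL, where 3 counts over the group would be 0.0708 per 1000000 counts in all genes, SSX1 was at least 13.5-fold higher in siCHD4. SSX1 passed the FPKM minimum only through siCHD4 and so had to differ there. It was at least 2.54-fold higher in siGATAD2A (adjusted p = 0.0231). That siGATAD2A call was lost without siCTL replicate 1, siCTL replicate 2 or siGATAD2A replicate 1, with adjusted p of 0.0812, 0.107 and 0.101.

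PAGE1 belongs to the same broad group of X-linked antigens. PAGE1 had 0 and 0 counts in the siCTL libraries, 0 and 0 in siCARM1, 10 and 14 in siCHD4, 0 and 3 in siHDAC2, 0 and 0 in siGATAD2A and 0 and 0 in siKDM1A. It was at least 6.76-fold higher in siCHD4. PAGE1 passed the FPKM minimum only through siCHD4 and so had to differ there, and this value is a description. GAGE1 and MAGEA4, by contrast, had at most 2 counts in any library, siCHD4 included.

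NLRP2, a maternal-effect gene of the oocyte and a relative of NLRP4, did not reach the FPKM minimum and was tested with the lower count filter of edgeR (filterByExpr), which kept 14495 coding genes. NLRP2 had 4 and 3 counts in the siCTL libraries, 2 and 2 in siCARM1, 73 and 65 in siCHD4, 2 and 3 in siHDAC2, 9 and 3 in siGATAD2A and 0 and 6 in siKDM1A. Both siCHD4 libraries stood far above the rest. In CPM the siCARM1 and siHDAC2 libraries lay below both siCTL libraries, on few counts and without a call, and siGATAD2A and siKDM1A overlapped with siCTL. NLRP2 passed the lower filter only through siCHD4 and so had to differ there, and its values are a description. In that fit the log2 difference of NLRP2 from siCTL was 4.03 in siCHD4 (SE 0.49). In this fit the genes called higher and lower made up 22.8% and 24.4% in siCHD4, 13.7% and 13.7% in siCARM1, 9.84% and 8.91% in siHDAC2, 14.7% and 17.4% in siGATAD2A and 13.4% and 11.3% in siKDM1A. The ratio of summed counts was 16.7 (exact 95% counting interval 7.87 to 42.2).

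Of the remaining piRNA pathway genes, 6 were tested with this lower filter, and PIWIL2, a PIWI protein that binds piRNAs in the cytoplasm, was the 1 called in siCHD4. PIWIL2 had 9 and 23 counts in the siCTL libraries, 31 and 15 in siCARM1, 63 and 57 in siCHD4, 31 and 21 in siHDAC2, 21 and 23 in siGATAD2A and 21 and 18 in siKDM1A. Both siCHD4 libraries lay above all others, with a log2 change of 1.68 in the filterByExpr fit (SE 0.35, adjusted p = 7.42e-05). TDRD6, a Tudor protein of the chromatoid body, was called in siHDAC2 only. TDRD6 had 13 and 14 counts in the siCTL libraries, 29 and 25 in siCARM1, 19 and 18 in siCHD4, 37 and 42 in siHDAC2, 22 and 19 in siGATAD2A and 27 and 24 in siKDM1A. Its log2 change in siHDAC2 was 1.33 (SE 0.34, adjusted p = 0.00281). Opposite-strand counts of TDRD6 were 17 and 16 in siHDAC2 against 8 and 6 in siCTL, and their part in the change was not tested.

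The nuclear PIWI protein PIWIL4, the helicase MOV10L1 that makes piRNA precursors available, the Tudor protein TDRD5 and the Tudor kinase STK31 were not called in any knockdown. PIWIL4 had 17 and 29 counts in the siCTL libraries, 21 and 39 in siCARM1, 18 and 23 in siCHD4, 25 and 35 in siHDAC2, 26 and 14 in siGATAD2A and 36 and 38 in siKDM1A. MOV10L1 had 3 and 7 counts in the siCTL libraries, 14 and 12 in siCARM1, 7 and 9 in siCHD4, 8 and 12 in siHDAC2, 2 and 4 in siGATAD2A and 7 and 12 in siKDM1A. Both siKDM1A libraries of PIWIL4, and both siCARM1 and siHDAC2 libraries of MOV10L1, lay above both siCTL libraries without a call. FUT4 shares 13.4% of the exonic length of PIWIL4 on the same strand. TDRD5 had 21 and 16 counts in the siCTL libraries, 21 and 24 in siCARM1, 33 and 37 in siCHD4, 24 and 39 in siHDAC2, 38 and 30 in siGATAD2A and 17 and 42 in siKDM1A. STK31 had 14 and 8 counts in the siCTL libraries, 10 and 12 in siCARM1, 14 and 14 in siCHD4, 7 and 13 in siHDAC2, 16 and 12 in siGATAD2A and 9 and 9 in siKDM1A. STK31 lay between 7 and 16 counts in every library, and TDRD5 lay above both siCTL libraries in siCHD4, siHDAC2 and siGATAD2A without a call.

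TEX15, a large protein needed for piRNA-directed silencing and for meiotic recombination, was one of the better measured members at 2.44 FPKM in siCTL. TEX15 had 573 and 650 counts in the siCTL libraries, 1009 and 953 in siCARM1, 748 and 865 in siCHD4, 757 and 996 in siHDAC2, 529 and 538 in siGATAD2A and 747 and 902 in siKDM1A. In raw counts both siGATAD2A libraries lay below all others, and the other knockdown libraries lay above both siCTL libraries. TEX15 rose by 0.45 (SE 0.08, adjusted p = 3.9e-05) in siCARM1 and by 0.31 (SE 0.08, adjusted p = 0.0038) in siHDAC2, and it fell by 0.43 (SE 0.09, adjusted p = 0.000125) in siGATAD2A on the log2 scale. Its changes of 0.19 in siCHD4 and 0.24 in siKDM1A had adjusted p of 0.0444 and 0.0236 but were under 1.2-fold. The siHDAC2 call was lost without siCTL replicate 2, at 0.28 with an adjusted p of 0.0569. The siKDM1A change reached 1.2-fold without siCTL replicate 1, at 0.27 with an adjusted p of 0.0472, and without siKDM1A replicate 1, at 0.30 with an adjusted p of 0.0164.

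The tested genes of meiotic chromosome structure were called in both directions. SYCP2, an axial element protein of the synaptonemal complex, had 1.10 FPKM in siCTL. SYCP2 had 135 and 166 counts in the siCTL libraries, 185 and 222 in siCARM1, 129 and 99 in siCHD4, 214 and 254 in siHDAC2, 170 and 123 in siGATAD2A and 197 and 224 in siKDM1A. The siCHD4 libraries lay at the low end, where they overlapped with siGATAD2A, and the siHDAC2 libraries at the high end, where they overlapped with siCARM1 and siKDM1A. SYCP2 fell by 0.60 (SE 0.18, adjusted p = 0.00455) in siCHD4 and rose by 0.44 (SE 0.16, adjusted p = 0.0362) in siHDAC2 on the log2 scale. Without siCHD4 replicate 2 the siCHD4 value was -0.41 with an adjusted p of 0.102. The siHDAC2 call was lost with DESeq2 (adjusted p = 0.0860) and without siCTL replicate 1, siCTL replicate 2 or siHDAC2 replicate 1, with adjusted p of 0.132, 0.113 and 0.224. SYCP2 was called in siCARM1 without siCARM1 replicate 1, at 0.49 with an adjusted p of 0.0188.

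SYCE2, a protein of the central element, was called in siCHD4 alone, where it was lower. SYCE2 had 25 and 34 counts in the siCTL libraries, 41 and 27 in siCARM1, 6 and 12 in siCHD4, 33 and 32 in siHDAC2, 20 and 32 in siGATAD2A and 17 and 27 in siKDM1A. Both siCHD4 libraries lay below all 10 others. SYCE2 fell by 1.90 (SE 0.43, adjusted p = 0.000271) in siCHD4 on the log2 scale and was not called elsewhere. GCDH covers 23.9% of the exonic length of SYCE2 on the opposite strand, where counts ran from 50 to 130. With counts taken without regard to strand the change was -0.18 with an adjusted p of 0.620. SYCP3 had 2 to 7 counts on its own strand and 113 to 240 on the opposite strand, where CHPT1 lies.

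TEX14, needed for the bridges that join dividing germ cells, was at 1.83 FPKM in siCTL. TEX14 had 188 and 226 counts in the siCTL libraries, 250 and 159 in siCARM1, 290 and 288 in siCHD4, 131 and 174 in siHDAC2, 241 and 214 in siGATAD2A and 214 and 198 in siKDM1A. In raw counts both siCHD4 libraries lay above all others, and the siHDAC2 libraries lay below both siCTL libraries. TEX14 fell by 0.65 (SE 0.14, adjusted p = 0.000361) in siHDAC2 and was called higher in siCHD4 at 0.28 (SE 0.12, adjusted p = 0.0479) on the log2 scale. The siCHD4 call sat at the threshold and was lost without either library of siCTL (adjusted p = 0.129 and 0.128) or of siCHD4 (adjusted p = 0.191 and 0.0942). It was also lost without either library of siHDAC2 (adjusted p = 0.0583 and 0.0580) or siGATAD2A (0.0552 and 0.0551 as adjusted p) and without siKDM1A replicate 1 (adjusted p = 0.0544). DESeq2 gave an adjusted p of 0.112. Without siCARM1 replicate 1, TEX14 was called lower in siCARM1, at -0.45 with an adjusted p of 0.0217.

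Cohesin and recombination genes of meiosis were detected at low levels and were not called in any knockdown. REC8 and RAD21L1 are germline kleisins and STAG3 is the cohesin subunit they work with. REC8 had 25 and 27 counts in the siCTL libraries, 32 and 20 in siCARM1, 25 and 35 in siCHD4, 15 and 31 in siHDAC2, 39 and 43 in siGATAD2A and 28 and 47 in siKDM1A. STAG3 had 9 and 9 counts in the siCTL libraries, 12 and 5 in siCARM1, 8 and 7 in siCHD4, 10 and 21 in siHDAC2, 18 and 18 in siGATAD2A and 14 and 14 in siKDM1A. The knockdown libraries fell on both sides of siCTL for REC8. STAG3 lay above siCTL in siHDAC2, siGATAD2A and siKDM1A without a call, and CASTOR3P overlaps 20.8% of its exonic length on the opposite strand. Opposite-strand counts of STAG3 ran from 120 to 241, against 5 to 21 on its own strand. Those of REC8 ran from 59 to 124, against 15 to 47. The part of opposite-strand reads in the counts of STAG3 and REC8 was not tested. RAD21L1 had 5 and 1 counts in the siCTL libraries, 9 and 3 in siCARM1, 7 and 16 in siCHD4, 3 and 4 in siHDAC2, 5 and 9 in siGATAD2A and 3 and 4 in siKDM1A. RAD21L1 passed neither filter, and its siCHD4 ratio was 3.24 (exact 95% counting interval 1.28 to 9.72). DMC1 had 13 and 13 counts in the siCTL libraries, 24 and 28 in siCARM1, 12 and 10 in siCHD4, 12 and 14 in siHDAC2, 15 and 17 in siGATAD2A and 17 and 22 in siKDM1A. DMC1, the meiotic recombinase, was highest in siCARM1 and was not called there.

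DPPA2, a chromatin protein of the early embryo that works with DPPA4, was at 1.14 FPKM in siCTL. DPPA2 had 33 and 33 counts in the siCTL libraries, 31 and 26 in siCARM1, 38 and 22 in siCHD4, 36 and 62 in siHDAC2, 38 and 47 in siGATAD2A and 37 and 77 in siKDM1A. DPPA2 was not called in any knockdown. Without siKDM1A replicate 1 it was called higher in siKDM1A, at 0.96 with an adjusted p of 0.0159. DPPA4 had at most 1 count in any library.

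siCHD4 was also set against each of the other knockdowns, a choice made because CTCFL was known to be highest in siCHD4. Against siCARM1, 7 of the 11 tested members besides CTCFL and NLRP4 were higher in siCHD4 and 2 lower, where 23.3% of all tested genes were higher and 24.5% lower. Against siHDAC2 the counts were 7 and 2, with 23.5% and 25.3% of all genes. Against siGATAD2A they were 7 and 1 (22.9% and 21.9%), and against siKDM1A 6 and 3 (22.8% and 25.0%). These comparisons share the siCHD4 libraries, and MAGEC1, SSX1 and PAGE1 entered only through them, so their calls here add no support. MAGEB2 passed the FPKM minimum only in siCARM1, siCHD4 and siGATAD2A. Its calls against siHDAC2 and siKDM1A are thus not independent of that minimum.

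MAGEC1 stood between 5.20 and 5.84 above the other knockdowns on the log2 scale, as a description. MAGEB2 stood between 2.7 and 4.27 above them and TEX19 between 2.24 and 2.65, all called. Without siCARM1 replicate 2 the MAGEC1 difference from siCARM1 was 5.88, and without siKDM1A replicate 1 the MAGEB2 difference from siKDM1A was 4.97. TEX19 passed the FPKM minimum in all 6 groups, so its place among the tested genes did not depend on siCHD4. PRAME was 0.44 above siCARM1 and 0.34 above siHDAC2, both called, but 0.26 above siGATAD2A, under the 1.2-fold minimum. Against siKDM1A the PRAME difference was 0.11, with a 95% interval from -0.02 to 0.24 (adjusted p = 0.137).

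SYCE2 was lower in siCHD4 than in all 4 other knockdowns and SYCP2 lower than in siCARM1, siHDAC2 and siKDM1A. With counts taken without regard to strand all 4 SYCE2 calls were lost, at -0.04 against siCARM1, -0.04 against siHDAC2, -0.40 against siGATAD2A and 0.10 against siKDM1A. Without siCHD4 replicate 1 the SYCE2 difference was -1.11 against siGATAD2A (adjusted p = 0.0742) and -0.91 against siKDM1A (adjusted p = 0.150). Without siGATAD2A replicate 2 it was -1.05 (adjusted p = 0.104), and without siKDM1A replicate 2 it was -0.98 (adjusted p = 0.151). TEX14 was higher in siCHD4 than in all 4. Against siGATAD2A the TEX14 call was lost without siCHD4 replicate 1, at 0.34 with an adjusted p of 0.0598, or siGATAD2A replicate 2, at 0.35 with an adjusted p of 0.0502. DPPA2 was lower than in siKDM1A, which was lost without siCHD4 replicate 2 (-0.57, adjusted p = 0.172) or siKDM1A replicate 2 (-0.38, adjusted p = 0.401). The PAGE1 call against siHDAC2, at 2.90, was lost with DESeq2 (adjusted p = 0.114) and without siCHD4 replicate 2 (adjusted p = 0.0537). It moved to 2.16 without siHDAC2 replicate 1, and without siHDAC2 replicate 2 no count was left in siHDAC2. The ratio of PAGE1 in siCHD4 to siHDAC2 was 7.85 (exact 95% counting interval 2.39 to 40.7).

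Other germline genes were read from 206 further genes in lists of meiosis, piRNA, oocyte, spermatid and cancer-testis genes, of which 201 were in the tables and 53 were tested. Higher and lower were 12 and 10 in siCHD4, 12 and 7 in siCARM1, 10 and 5 in siHDAC2, 8 and 7 in siGATAD2A and 8 and 1 in siKDM1A. As shares of the 53 these were 22.6% and 18.9% in siCHD4 and 15.1% and 13.2% in siGATAD2A, each below the shares of all tested genes (24.0% and 24.9%, 15.7% and 18.2%). They were 22.6% and 13.2% in siCARM1 (14.9% and 14.5% of all tested genes), 18.9% and 9.43% in siHDAC2 (10.6% and 9.00%) and 15.1% and 1.89% in siKDM1A (14.2% and 11.5%). Of the 53, 8 were called higher and 4 lower in at least 3 knockdowns. The share of all tested genes that recurred in this way was not counted, and the comparisons share the siCTL libraries, so these numbers serve only to name genes.

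The X-linked antigen MAGEB6 rose in 4 knockdowns, from 3 and 4 counts in siCTL to 327 and 323 in siCHD4 (log2 change 6.29, SE 0.30). XAGE2 was called higher in 3, with 0 and 2 counts in siCTL against 24 and 18 in siCHD4. H1-6, the testis linker histone, rose by 3.52 in siCHD4 (SE 0.10, adjusted p = 3.5e-23), by 1.70 in siGATAD2A and by 1.36 in siCARM1, and fell by 0.74 in siHDAC2. ANKRD31, a regulator of meiotic DNA breaks, rose in 4 knockdowns. MAGEB6 passed the FPKM minimum only in siCARM1, siCHD4 and siGATAD2A, and XAGE2 only in siCARM1, siCHD4 and siHDAC2. ANKRD31 passed it only in siCARM1, siHDAC2 and siKDM1A. The calls of MAGEB6, XAGE2 and ANKRD31 in these groups are thus not independent of that minimum and are given for their values. ZBTB16 (PLZF), a spermatogonial stem cell factor on the list of repressors, rose in 4, by 1.17 in siGATAD2A and not in siCHD4, at 0.09. NANOS1 and OIP5 fell in 4 knockdowns each and SPA17 in 3, as did GATA3 of the breast cancer cell markers in 4. PLD6, which takes part in piRNA biogenesis, fell in 3, by 0.60 in siCHD4, and was at 0.26 in siGATAD2A, not called. Of 34 known repressors of germline genes, 33 were tested, and the 7 higher and 5 lower in siCHD4 made up 21.2% and 15.2%, below the shares of all tested genes (24.0% and 24.9%). Higher and lower repressors made up 21.2% and 9.09% in siCARM1 (14.9% and 14.5% of all tested genes) and 21.2% and 6.06% in siGATAD2A (15.7% and 18.2%). They made up 12.1% and 6.06% in siHDAC2 (10.6% and 9.00%) and 12.1% and 9.09% in siKDM1A (14.2% and 11.5%).

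The neighbourhood of the chosen pair was read to see whether the genes beside them moved too. Within 250 kb of CTCFL lie 8 coding genes, SPO11, RAE1, MTRNR2L3, RBM38, HMGB1P1, PCK1, ZBP1 and PMEPA1, of which 4 were tested. PCK1, the gluconeogenic enzyme gene 35.4 kb from CTCFL, was lower in all 5 knockdowns, with 244 and 334 counts in siCTL against 140 and 121 in siCARM1, 108 and 98 in siCHD4, 168 and 191 in siHDAC2, 83 and 60 in siGATAD2A and 84 and 78 in siKDM1A. Its log2 change was -1.38 (SE 0.14), -1.69 (SE 0.15), -0.88 (SE 0.14), -2.25 (SE 0.16) and -2.02 (SE 0.15) in that order, opposite to CTCFL. PMEPA1 rose by 0.81 in siCHD4, 0.66 in siGATAD2A and 1.04 in siKDM1A, RBM38 by 0.56 in siCHD4 and RAE1 by 0.27 in siGATAD2A.

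**Figure D3:**
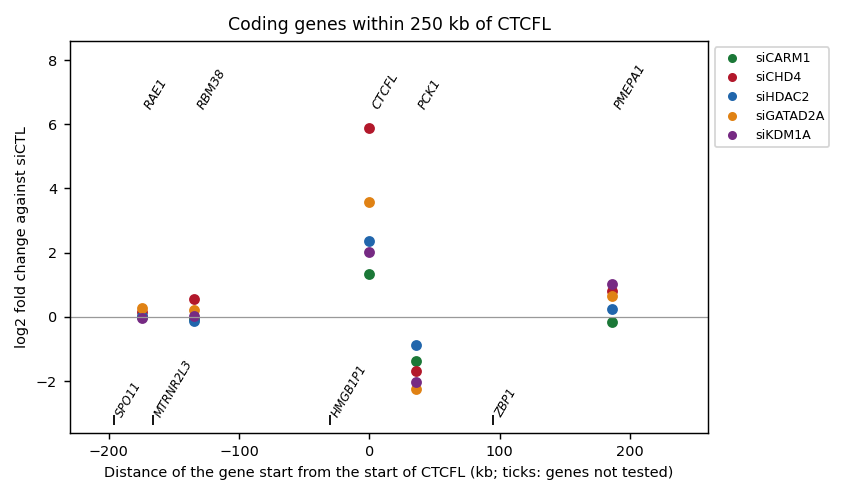
Log2 change against siCTL of the tested coding genes within 250 kb of CTCFL, by distance from its start, in the 5 knockdowns. CTCFL is above 0 and PCK1 below 0 in all 5, the other tested genes lie between them, and ticks mark genes that were not tested.

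Within 250 kb of NLRP4 lie 16 coding genes, of which 12 were tested. RFPL4A, an oocyte and early embryo gene about 77 kb away, stood 4.58 higher in siCHD4 on the log2 scale (SE 0.42), with 2 and 4 counts in siCTL against 85 and 86, and its copy RFPL4AL1 had 14 and 18 counts there. Both passed the FPKM minimum only through siCHD4 and so had to differ there. NLRP11, which starts 0.26 kb from NLRP4 on the opposite strand, was higher only in siGATAD2A, by 0.64 (SE 0.19). The zinc finger gene ZNF524 fell in all 5, by 1.83 in siCHD4, and FIZ1 fell in 4. ZNF784 and CCDC106 each fell in 2, ZNF580 fell in 3, ZNF581 and EPN1 rose in siCHD4 and siGATAD2A, and ZNF865 and U2AF2 were not called. NLRP5, NLRP8, NLRP9 and NLRP13, which are also oocyte genes, were too low to be tested.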

How the data were processed

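RNA of 12 HEK293T libraries (6 siRNA groups, 2 libraries each) was measured by stranded paired-end RNA-seq from total RNA. Reads were reported as aligned to hg19, and the submitters' processing notes name STAR 2.7.10 and CASAVA 1.4, while the published methods describe TopHat and HOMER; the annotation release is not given in the sources used here. The authors deposited raw counts per gene and library, unstranded and for each strand, and the strand that held the transcripts was used (the opposite strand held 7.93% to 8.40%). Fragments mapping to several places (5.44% to 10.6%), to no gene (17.2% to 21.2%) or to overlapping genes (5.50% to 6.22%) were not counted to a gene. Gene symbols and coding status were matched for 58662 of 60660 identifiers. 1954 unmatched identifiers with 1.75% to 2.61% of the counts and 44 copies on the Y pseudoautosomal region were left out.

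CPM is counts per 1000000 counts in the tested genes with TMM scaling, and FPKM is counts per 1000000 counts in all genes and per kilobase of exon, without it. Differences were tested in R 4.3.3 with edgeR 4.0.16 (TMM, 6 group means, glmQLFTest) over 12830 coding genes above 0.5 FPKM, with Benjamini-Hochberg adjustment over all of them. The common biological coefficient of variation was 3.47%. On simulated counts for siCHD4 against siCTL over 12830 genes, 194 of 200 changed genes were recovered and 8 unchanged genes were called. The simulated log2 changes were 1 or 2 in either direction, in genes drawn at random from all tested genes. Recovery of smaller changes, nearer the 1.2-fold minimum, or of members with few counts was not measured. Intervals and floors (3 counts) cover counting error only. An exact permutation test of 2 against 2 libraries cannot go below a two-sided p of 0.333 and was not used. The alternatives were RLE, DESeq2 1.42.0, a replicate block, the 2 groups alone, unstranded counts, FPKM above 1, filterByExpr, no filter, no fold minimum and each library left out in turn.

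The members and gene lists were chosen with earlier results of these data known. Every member was named. Counts per library were given for members with a group mean of at least 10 counts, genes of the other lists (germline genes, repressors and cell markers) were named where called the same way in at least 3 knockdowns (up to 5 per direction by mean change), and coding genes within 250 kb of CTCFL and NLRP4 were named. Promoter windows are from RefSeq (GRCh38.p14), gene coordinates are GRCh37, and no position was converted.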

Additional observations from a re-analysis of the deposited data

Results flagged for a closer look

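SYCP2, TEX14 and TEX15 were called in opposite directions by different knockdowns against the shared siCTL libraries, and the difference between the knockdowns was fitted directly with edgeR. SYCP2 stood 1.04 higher in siHDAC2 than in siCHD4 on the log2 scale (SE 0.17), at 0.44 and -0.60 against siCTL. TEX14 stood 0.92 higher in siCHD4 than in siHDAC2 (SE 0.13), at 0.28 and -0.65 against siCTL, the first of which sat at the threshold. TEX15 stood 0.88 higher in siCARM1 than in siGATAD2A (SE 0.08) and 0.75 higher in siHDAC2 than in siGATAD2A (SE 0.08), at 0.45, 0.31 and -0.43 against siCTL. The pairs were picked because their calls had opposite signs, so these differences are descriptions.

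On the opposite strand, which no comparison used, TEX14 had a mean of 13 counts in siKDM1A (15 and 11) against 3 and 2 in the siCTL libraries. On that strand siCARM1 had 6 and 11, siCHD4 1 and 5, siHDAC2 5 and 6 and siGATAD2A 4 and 4. The antisense gene SEPTIN4-AS1 shares 4.51% of the exonic length of TEX14 there.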

How the results depend on the processing

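Each count of members called was recomputed under the alternatives. With counts taken without regard to strand, and with FPKM above 1, the number of members lower in siCHD4 went from 2 to 1, and with FPKM above 1 the number differing between siCHD4 and siGATAD2A went from 8 to 5, where fewer genes were tested. With filterByExpr, which tests more genes, members higher in siHDAC2 went from 4 to 5. Under that filter 12 members differed between siCHD4 and siCARM1, and 12 between siCHD4 and siHDAC2. The number was 10 against siGATAD2A and 11 against siKDM1A. The lower filter kept 22 members, with CTCFL and NLRP4 but without PAGE1, against 13 in the main test. A higher count is therefore not a larger share of the members tested. The share of all genes differing in such comparisons was not counted with filterByExpr. With a replicate block every count was as before, namely 3 higher and 0 lower in siCARM1, 7 and 2 in siCHD4, 4 and 1 in siHDAC2, 4 and 1 in siGATAD2A, 2 and 0 in siKDM1A, and 9, 9, 8 and 9 differing between siCHD4 and siCARM1, siHDAC2, siGATAD2A and siKDM1A. Same-numbered libraries correlated between -0.14 and 0.14 in their deviations from the group means, so the numbers pair nothing that could be measured.

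When each library was left out in turn, members higher numbered 3 to 5 in siCARM1 and 6 to 7 in siCHD4, and 2 to 4 for each of siHDAC2, siGATAD2A and siKDM1A. Members lower numbered 0 to 1 in siCARM1 and 1 to 2 in siCHD4, and stayed at 1 for siHDAC2 and siGATAD2A and at 0 for siKDM1A. Members differing from siCHD4 numbered 9 to 10 for siCARM1, 8 to 10 for siHDAC2, 7 to 8 for siGATAD2A and 7 to 9 for siKDM1A, and detected members 23 to 24. Where a group was left with 1 library, that library was assumed to vary like the others.

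Of 855 member values under the alternatives that kept all libraries, 833 kept their direction and their side of the threshold, 10 lost a call, 11 gained one and 1 reversed. The reversal was SYCE2 in siCHD4 against siKDM1A, at 0.10 with unstranded counts (adjusted p = 0.793), where reads of GCDH on the other strand are added. TEX19 in siCARM1 lost its call with unstranded counts (adjusted p = 0.0895), TEX14 in siCHD4 with DESeq2 (0.112 as adjusted p) and filterByExpr (0.0676), and SYCP2 in siHDAC2 with DESeq2 (adjusted p = 0.0860). Of 1188 values with a library left out, 1142 kept their side, 27 lost a call and 19 gained one. The log2 difference of CTCFL ranged from 5.48 to 6.08 in siCHD4, 3.20 to 3.78 in siGATAD2A, 1.73 to 2.90 in siHDAC2, 1.73 to 2.22 in siKDM1A and 1.04 to 1.60 in siCARM1 over all alternatives. Depth limits the members under 10 counts, and 2 libraries a group limit the error estimate, which is shared over all groups.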
